A study of Mus musculus with 64 samples.

Results

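The 10 genes described here encode chaperones and regulators of endoplasmic reticulum (ER) stress: Hspa5, Hsp90b1, Dnajb9, Calr, Pdia4, Sdf2l1, Manf, Creld2, Herpud1 and Xbp1. They were taken by symbol from the gene counts of a study of the mouse ventral tegmental area (VTA), the midbrain region whose dopamine neurons serve reward and motivation. All 10 were found among the 24421 genes of the count table, and all 10 were among the 15634 genes with enough counts to be tested. The animals were adult male mice of the strain labelled 129S1/Svlm, and each of the 64 libraries came from 1 mouse. They were labelled either wildtype or Clock delta 19 mutant, an allele of the circadian transcription factor Clock whose transcript skips an exon. Each mouse had received valproate (VPA), ACY957 or the vehicle of either drug for 14 days. VPA is a mood stabiliser that also inhibits histone deacetylases, and ACY957 is a selective inhibitor of class I histone deacetylases. Punches of 1 mm centred on the VTA were taken at zeitgeber time 6, about 24 hours after the last dosing.

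The labels gave 8 wildtype and 8 mutant mice on VPA, and 8 wildtype and 8 mutant mice on ACY957. They gave 3 wildtype and 13 mutant mice on the VPA vehicle, and 5 wildtype and 11 mutant mice on the ACY957 vehicle, although the design text plans 8 mice for each group. Each treatment therefore had 16 libraries over both labels. VPA with its own vehicle is called the VPA arm here, and ACY957 with its own vehicle the ACY957 arm, with 32 libraries each. How or when the mice of each arm were dosed and their tissue handled is not given in the sources used here.

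The genotype labels and the tissue were checked first. Gene counts do not show which exons a transcript holds, so the Clock allele was judged from 8 genes driven by the clock, all 8 of which were lower in the mutant-labelled libraries. The mean of these genes had its widest gap between 4.32 and 4.91 log2 CPM (CPM are read counts scaled to a common library size), and 23 of 24 wildtype-labelled but also 12 of 40 mutant-labelled libraries lay above it. These 13 libraries go against their labels, so every result by genotype below is a result by label. Th, which marks dopamine neurons, was under 8 log2 CPM in 4 libraries, all of the VPA arm. Total counts per library ran from 20136693 to 37475292.

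The ER is where secreted and membrane proteins are folded. When unfolded proteins build up there, a set of sensors in its membrane starts the unfolded protein response, which slows translation and raises the transcription of chaperones and of the machinery that degrades misfolded proteins. Hspa5 (also called BiP) is the main Hsp70-type chaperone of the ER and keeps the sensors inactive, and Hsp90b1 (also called GRP94) is its Hsp90-type chaperone. Dnajb9 is a J-domain co-chaperone of Hspa5, Calr is a chaperone of glycoproteins, Pdia4 is a disulfide isomerase and Sdf2l1 works with Hspa5 complexes. Manf is a secreted ER stress protein with protective effects on dopamine neurons, and Creld2 is another secreted ER stress protein. Herpud1 serves ER-associated degradation, and Xbp1 is the transcription factor made active by splicing through the sensor Ern1.

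Promoter sequence shows 1 feature that several of the 10 genes share. The ER stress element (ERSE) is CCAAT, then 9 bases, then CCACG, and is bound by NF-Y together with ATF6 or XBP1. It was searched on both strands in windows from 250 bases before to 50 bases after the RefSeq transcription start (GRCm38.p6), which were found for 9 of the 10 genes, all but Manf. It occurred in 4 of these 9 genes and in 39 of 32851 windows of all genes (0.119%). The related ERSE-II, ATTGG, 1 base, CCACG, occurred in 1 of the 9, Herpud1, and in 12 windows of all genes (0.0365%). The matches are shown because they are the known response elements of this gene group, with the fixed bases in capitals and each read 5′ to 3′ on the strand that carries it, and positions counted in the direction of the gene:
Hspa5, chr2:34772025-34772043, first base 65 before the start, strand of the gene: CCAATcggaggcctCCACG
Hsp90b1, chr10:86705638-86705656, first base 212 before the start, strand of the gene: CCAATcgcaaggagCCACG
Hsp90b1, chr10:86705533-86705551, first base 107 before the start, opposite strand: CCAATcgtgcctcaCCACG
Calr, chr8:84847075-84847093, first base 162 before the start, opposite strand: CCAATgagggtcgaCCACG
Creld2, chr15:88819520-88819538, first base 126 before the start, opposite strand: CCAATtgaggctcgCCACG
Herpud1 (ERSE-II), chr8:94386377-94386387, first base 52 before the start, strand of the gene: ATTGGgCCACG

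Hsp90b1 was the only 1 of the 9 with 2 matches. Its stretch upstream of both the RefSeq and the GENCODE start, chr10:86705510-86705694 on the minus strand, holds the first match as written and the second as its reverse complement:
Hsp90b1 upstream: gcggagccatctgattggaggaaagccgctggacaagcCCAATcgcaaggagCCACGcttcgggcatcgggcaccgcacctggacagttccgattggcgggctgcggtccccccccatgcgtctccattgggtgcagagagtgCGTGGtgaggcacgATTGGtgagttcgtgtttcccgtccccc
Neither the UPR element (TGACG followed directly by TGG) nor the heat shock element (GAA, 2 bases, TTC, 2 bases, GAA) occurred in the 9 windows. They occurred in 0.676% and 0.603% of the windows of all genes. GENCODE M21 starts Hspa5 120 bases upstream of the RefSeq start, so its match lies inside the GENCODE gene model. A match describes the letters of the window and does not show binding.

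The 10 genes covered a wide range of levels. Per kilobase of exon in GENCODE M21 (mm10), Calr had the highest mean over the 64 libraries at 193.5 CPM per kb, followed by Hspa5 at 122.5 and Hsp90b1 at 104.8. Dnajb9 (47.9), Xbp1 (46.4) and Herpud1 (42.5 CPM per kb) formed a middle group. Pdia4 at 22.9, Manf at 16.2, Sdf2l1 at 13.6 and Creld2 at 10.6 CPM per kb were lowest. The Manf gene model (chr9:106838312-106891979) holds Rbm15b on the same strand and overlaps Dcaf1 on the other, so reads in shared stretches may be left out or assigned unevenly. Even the lowest count of Sdf2l1 in any library was 153 reads, so counting error was small beside the differences between mice.

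None of the 10 genes passed the test for either drug against its own vehicle. Over both labels, Hspa5 averaged 544 ± 92.6 CPM (SD, n = 16) under VPA and 573 ± 142 CPM under the VPA vehicle. It averaged 478 ± 38 CPM under ACY957 and 477 ± 29.8 CPM under the ACY957 vehicle. Its log2 fold change was -0.06 (95% interval -0.22 to 0.10) for VPA and 0.01 (-0.14 to 0.17) for ACY957. These intervals use 1 estimate of spread for all groups, although the SD of log2 CPM within groups was 0.30 in the VPA arm and 0.10 in the ACY957 arm. The interval of Hspa5 may thus be too narrow for VPA and too wide for ACY957. The widest interval belonged to Sdf2l1, at -0.19 (-0.49 to 0.11) for VPA and -0.09 (-0.39 to 0.21) for ACY957. Xbp1 stood at -0.07 for VPA and -0.03 for ACY957, and Creld2 at -0.05 and -0.07. In edgeR's quasi-likelihood test with Benjamini-Hochberg adjustment over all genes, 0 of the 10 passed at 0.05 for VPA, beside 0.895% of all genes, and 0 of the 10 for ACY957, beside 0.0640% of all genes. The smallest unadjusted p belonged to Hsp90b1 under VPA, with a log2 fold change of -0.10, p = 0.0238 and adjusted p = 0.253. The medians of the 10 log2 fold changes were -0.06 for VPA and -0.03 for ACY957, and those of all genes were 0.00 within rounding for both. DESeq2 and limma voom passed 0 of the 10 in both comparisons as well. Against the 2 vehicles pooled, 2 of the 10 were lower under ACY957, Calr (-0.17, adjusted p = 0.0229) and Manf (-0.27, adjusted p = 0.0318). That comparison takes in the VPA vehicle, and 416 of all 15634 genes passed in it. For VPA against the pooled vehicles 909 genes passed, and the smallest adjusted p of the 10 was 0.0859, for Herpud1.

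Within each label the counts were the same. For VPA against its vehicle, 0 of the 10 passed in wildtype-labelled mice (0.0256% of all genes) and 0 of the 10 in mutant-labelled mice (0.0576%). For ACY957 against its vehicle, 0 of the 10 passed under either label (0.00640% of all genes each time). The difference between the labels in the change with VPA passed for 0 of the 10 (0.00640% of all genes), and that in the change with ACY957 also for 0 (0% of all genes, with 287 at an unadjusted p under 0.05 and 0 by DESeq2 or limma voom). These differences had wide errors: for Hspa5 under VPA, the change in mutant-labelled mice exceeded that in wildtype-labelled mice by 0.14 with an SE of 0.18. Over both labels the change with VPA minus that with ACY957 passed for 0 of the 10, beside 0.0256% of all genes.

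The comparison of genotype labels gave no call among the 10 genes. Over all treatments, 0 of the 10 passed for mutant against wildtype label, beside 1.82% of all genes. Hspa5 differed by 0.04 (95% interval -0.07 to 0.16), and the largest difference was 0.11 for Creld2 (-0.07 to 0.28). Within VPA 0 of the 10 passed (1.00% of all genes), within ACY957 0 (0% of all genes, with 757 at an unadjusted p under 0.05, 5 passing by DESeq2 and 0 by limma voom), within the VPA vehicle 0 (0.00640%) and within the ACY957 vehicle 0 (0.0128%). With 13 libraries going against their label, these values describe the labels as deposited.

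Most of the 10 genes were higher in the VPA arm than in the ACY957 arm, with 7 passing between the drugs and 7 between the vehicles. Under VPA directly against ACY957, over both labels, 7 of the 10 rose and 0 fell: Sdf2l1, Manf, Creld2, Pdia4, Dnajb9, Calr and Herpud1. Of all genes, 12.6% passed in either direction and 6.26% were higher. Between the vehicles, with no drug in either group, 7 of the 10 were also higher in the VPA vehicle than in the ACY957 vehicle: Sdf2l1, Manf, Hspa5, Pdia4, Herpud1, Dnajb9 and Calr. Here 5.55% of all genes passed and 2.87% were higher. The counts depended on the tool. Between the drugs 7 of the 10 passed by DESeq2 and 6 by limma voom, beside 2231 and 1968 of all genes. Between the vehicles 9 passed by DESeq2 and 5 by limma voom, beside 1143 and 812 of all genes. The drug groups and the vehicle groups share no libraries. The median log2 difference of the 10 was 0.21 between the drugs and 0.25 between the vehicles, and that of all genes was 0.00 within rounding in both.

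**Figure D1:**
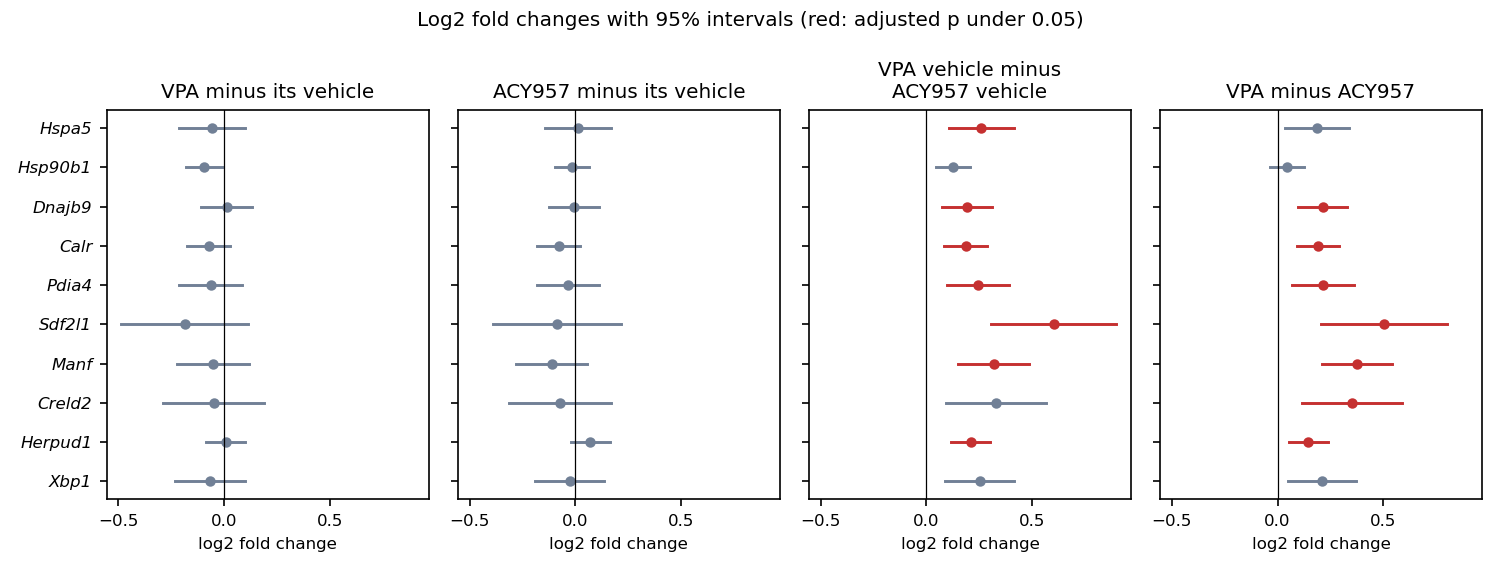
Log2 fold changes of the 10 genes (points) with 95% intervals (lines) in 4 comparisons over both labels, 16 libraries against 16 each, with adjusted p under 0.05 in red. The 2 panels of a drug against its own vehicle hold no red point, and the 2 panels of the VPA arm against the ACY957 arm hold 7 red points each, all above 0.

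Sdf2l1 had the largest difference. Its medians were 15.2 CPM under the VPA vehicle (8.95 to 33.1), 14.4 under VPA (10.3 to 25.2), 12.9 under the ACY957 vehicle (8.02 to 16.3) and 12.1 under ACY957 (7.43 to 14.8). The lower ends of the 4 ranges lay between 7.43 and 10.3 CPM, and only the VPA and VPA vehicle groups reached beyond 16.3 CPM. The log2 difference was 0.50 ± 0.15 (SE) between the drugs (adjusted p = 0.0184) and 0.60 ± 0.15 between the vehicles (adjusted p = 0.0131).

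Manf followed, with medians of 61 CPM under the VPA vehicle (45.9 to 98.4), 61.2 under VPA (47.3 to 81.0), 51.9 under the ACY957 vehicle (43.5 to 61.4) and 48 under ACY957 (41.7 to 53.5). Here the medians moved apart as well as the upper ends, although the ranges still overlapped. Its log2 difference was 0.38 ± 0.08 between the drugs (adjusted p = 0.0019) and 0.32 ± 0.08 between the vehicles (adjusted p = 0.0195).

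Hspa5 showed the pattern in single mice. In wildtype-labelled libraries its range was 453 to 710.1 CPM under VPA (median 485), 488.1, 492.8 and 800.2 CPM in the 3 mice on the VPA vehicle, 404 to 508 CPM under ACY957 (median 474) and 434, 442, 451, 469 and 481 CPM in the 5 mice on the ACY957 vehicle. In mutant-labelled libraries it was 466.2 to 687.4 CPM under VPA (median 508), 434 to 809.9 under the VPA vehicle (median 484), 433 to 548 under ACY957 (median 481) and 429 to 529.7 under the ACY957 vehicle (median 487). The 8 group medians thus lay between 451 and 508 CPM, while only VPA-arm libraries exceeded 548 CPM. The log2 difference of Hspa5 was 0.26 ± 0.08 between the vehicles (adjusted p = 0.0357) and 0.19 ± 0.08 between the drugs, which did not pass (adjusted p = 0.0923).

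**Figure D2:**
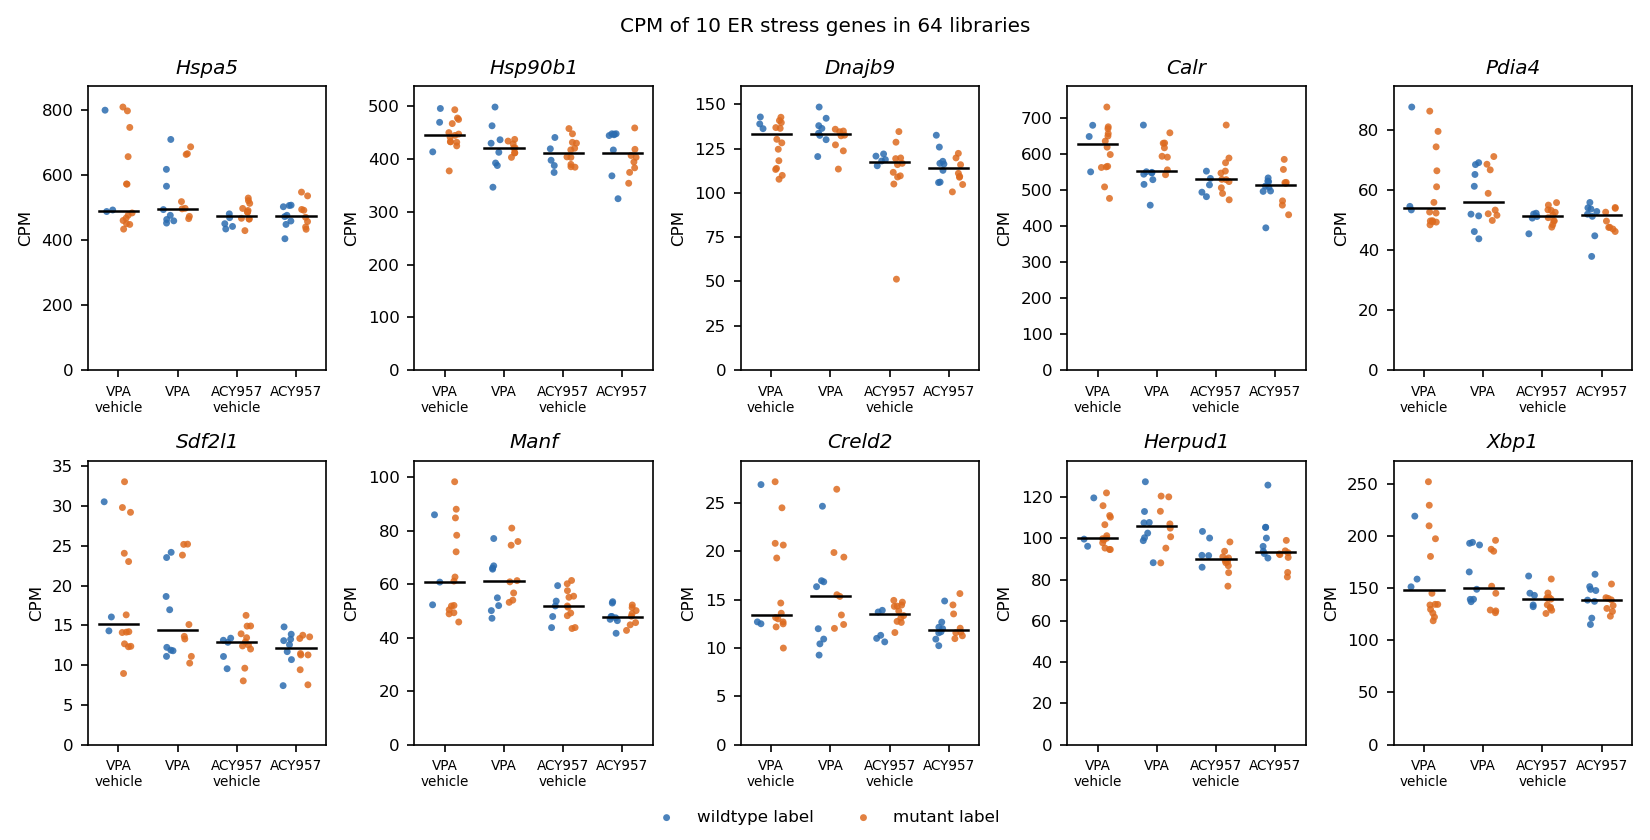
CPM of each of the 10 genes (vertical axes, from 0) in the 64 libraries by treatment, with 1 point per mouse, coloured by genotype label, and a bar at the median of the 16 libraries. For all genes but Calr and Herpud1, several of the VPA and VPA vehicle points lie above all ACY957 and ACY957 vehicle points, from 8 for Hsp90b1 to 15 for Pdia4. For Calr and Herpud1 1 point does.

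The co-chaperone Dnajb9, the glycoprotein chaperone Calr and the degradation factor Herpud1 rose in both comparisons. Dnajb9 had medians of 133 CPM under both VPA and its vehicle and of 114 and 117 under ACY957 and its vehicle, with log2 differences of 0.21 ± 0.06 between the drugs (adjusted p = 0.0115) and 0.19 ± 0.06 between the vehicles (adjusted p = 0.0409). Calr had medians of 554 and 629 CPM in the VPA arm (drug, then vehicle) and of 516 and 530.2 in the ACY957 arm, with log2 differences of 0.19 ± 0.05 in both comparisons (adjusted p = 0.0082 and 0.0224). Herpud1 had medians of 106 and 99.99 CPM in the VPA arm and of 93.4 and 90.2 in the ACY957 arm, with log2 differences of 0.14 ± 0.05 (adjusted p = 0.0278) and 0.21 ± 0.05 (adjusted p = 0.0063). For these 3 genes the medians of the arms stood apart. For Calr and Herpud1 the single highest values of the arms were close, although the upper quartiles also stood apart. A single mutant-labelled library on the ACY957 vehicle had Dnajb9 at 51.3 CPM, where the other ACY957-arm libraries had 101 CPM or more.

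The remaining 4 genes gave a mixed record. Pdia4 rose in both comparisons, by 0.21 ± 0.07 (adjusted p = 0.0406) and 0.24 ± 0.07 (adjusted p = 0.0377). Creld2 rose between the drugs by 0.35 ± 0.12 (adjusted p = 0.0389) and stood at 0.33 ± 0.12 between the vehicles (adjusted p = 0.0828). Xbp1 stood at 0.21 ± 0.08 (adjusted p = 0.0728) and 0.25 ± 0.08 (adjusted p = 0.0513), neither of which passed, in gene counts that do not show its splicing. Hsp90b1 had the smallest values, 0.04 ± 0.04 between the drugs (adjusted p = 0.514) and 0.12 ± 0.04 between the vehicles (adjusted p = 0.0542). Hsp90b1, the gene with 2 ERSE matches, thus had the smallest difference between the drugs and between the vehicles.

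Joining drug and vehicle of each arm, a comparison added after these values were seen, gave 32 libraries against 32. All 10 genes were higher in the VPA arm, beside 23.3% of all genes that passed and 11.9% that were higher. The log2 differences were 0.55 for Sdf2l1, 0.35 for Manf, 0.34 for Creld2, 0.23 for Xbp1 and for Pdia4, 0.22 for Hspa5, 0.20 for Dnajb9, 0.19 for Calr, 0.18 for Herpud1 and 0.08 for Hsp90b1. Adjusted p ran from 2.6e-05 for Manf to 0.0268 for Hsp90b1. This comparison uses the same libraries as the 2 before it and adds precision, not further mice. The drug, its vehicle and any other difference in how the arms were handled cannot be told apart in it.

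Within single labels fewer genes passed. For VPA against ACY957 in mutant-labelled mice, 3 of the 10 rose, Manf (0.43), Calr (0.25) and Herpud1 (0.23), beside 5.56% of all genes that passed and 3.17% that were higher. In wildtype-labelled mice 0 of the 10 passed (0.959% of all genes), with values from 0.01 for Hsp90b1 to 0.42 for Sdf2l1. Between the vehicles Herpud1 rose in mutant-labelled mice (0.22, adjusted p = 0.0134), 1 of the 10, beside 3.66% of all genes that passed and 1.85% that were higher. In wildtype-labelled mice, with 3 and 5 vehicle libraries, 0 of the 10 passed and 0% of all genes, with 705 genes at an unadjusted p under 0.05 and 0 passing by DESeq2 or limma voom. The 10 values there ran from 0.15 for Herpud1 to 0.76 for Sdf2l1. All 10 values were above 0 in each of these 4 comparisons.

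Single libraries moved these counts. Without the wildtype-labelled VPA replicate 3 or the mutant-labelled VPA replicate 3, 4 of the 10 passed between the drugs over both labels. Without the mutant-labelled VPA vehicle replicate 1, 2 or 9 or the mutant-labelled ACY957 vehicle replicate 5, 4 of the 10 passed between the vehicles. Leaving out the 4 libraries low in Th left 4 of the 10 between the drugs, and leaving out the 13 libraries that go against their labels also left 4. Without the vehicle mice numbered 48 or above, 16 libraries that all carry the mutant label, the count was 4 of the 10 between the vehicles. In mutant-labelled mice 0 of the 10 passed between the drugs without the VPA replicate 3, the ACY957 replicate 2 or the ACY957 replicate 8, and 1 without the VPA replicate 1. All 10 passed between the arms whichever of the 64 libraries was left out.

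Values above the whole ACY957 arm came from part of the VPA-arm mice, while for some genes most of the VPA arm was shifted. VPA-arm libraries above the ACY957-arm median numbered 30 of 32 for Herpud1, 29 for Manf, 28 for Calr, 27 for Dnajb9 and 25 for Hsp90b1. They numbered 23 for Pdia4, 22 each for Hspa5, Sdf2l1 and Creld2 and 21 for Xbp1. Hspa5 exceeded the highest ACY957-arm library, at 548 CPM, in 13 of the 32 VPA-arm libraries. The number was 15 for Pdia4, 14 each for Sdf2l1, Manf and Dnajb9, 13 each for Creld2 and Xbp1 and 8 for Hsp90b1. It was 1 each for Calr and Herpud1, where the highest ACY957-arm libraries stood at 681.6 and 125.9 CPM. For Herpud1 that library stood apart, with the next in its group at 105.4 CPM. The upper quartiles of Calr and Herpud1 were 650 and 112 CPM in the VPA arm and 538 and 96.7 CPM in the ACY957 arm. For these 2 genes the number thus understates how far the upper values differed. As background, the median gene had 1 such library, 0.678% of all genes had 13 or more and 0.288% had 15 or more. At the lower end, ACY957-arm libraries lay below the lowest VPA-arm library in 7 cases for Manf, 6 each for Dnajb9 and Herpud1, 3 each for Hspa5 and Sdf2l1, 2 for Calr, 1 each for Hsp90b1, Pdia4 and Xbp1 and 0 for Creld2. For Calr and Herpud1 these numbers were above those at the upper end, and for the other 8 genes they were below them. VPA-arm libraries below the lowest ACY957-arm library numbered 2 for Creld2, and for the other 9 genes a value of 0 follows from the numbers just given.

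The same mice were high for several genes. Of the VPA-arm libraries, 13 had at least 6 of the 10 genes above the highest ACY957-arm library, 1 had 4 of them and the other 18 had 2 or fewer. Of these 13, 7 had received VPA and 6 its vehicle. They were the wildtype-labelled VPA replicates 1 to 4, the mutant-labelled VPA replicates 1 to 3, the wildtype-labelled VPA vehicle replicate 1 and the mutant-labelled VPA vehicle replicates 1, 2, 9, 10 and 12. For example, Hspa5, Manf, Sdf2l1 and Creld2 stood at 798, 98.4, 33.1 and 27.2 CPM in the mutant-labelled VPA vehicle replicate 9. In the mutant-labelled VPA vehicle replicate 5 of the same group they stood at 434, 45.9, 12.3 and 10 CPM. The libraries were high both with and without drug and under both labels. Under VPA the high libraries were the lowest-numbered mice of each label, numbers 1 to 4 and 25 to 27. Under the VPA vehicle they were numbers 9, 32, 33, 53, 54 and 56. What the mouse numbers stand for was not tested.

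The spread between mice of the same group was compared between the arms, as a description. The SD of log2 CPM around the group means was 0.30 for Hspa5 in the VPA arm and 0.10 in the ACY957 arm, a ratio of 2.95 that 0.0832% of all genes reached. The ratio was 2.93 for Creld2, 2.58 for Xbp1, 2.34 for Pdia4, 2.23 for Manf and 1.91 for Sdf2l1. Of all genes, 1.70% reached the ratio of Sdf2l1, the lowest of these 6. The ratio was 1.27 for Herpud1 and 1.12 for Calr, which 23.9% and 39.7% of all genes reached, and 0.92 for Hsp90b1. For Dnajb9 it was 0.49, with the library at 51.3 CPM on the ACY957 side. The median ratio was 2.07 over the 10 genes and 1.05 over all genes tested.

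**Figure D3:**
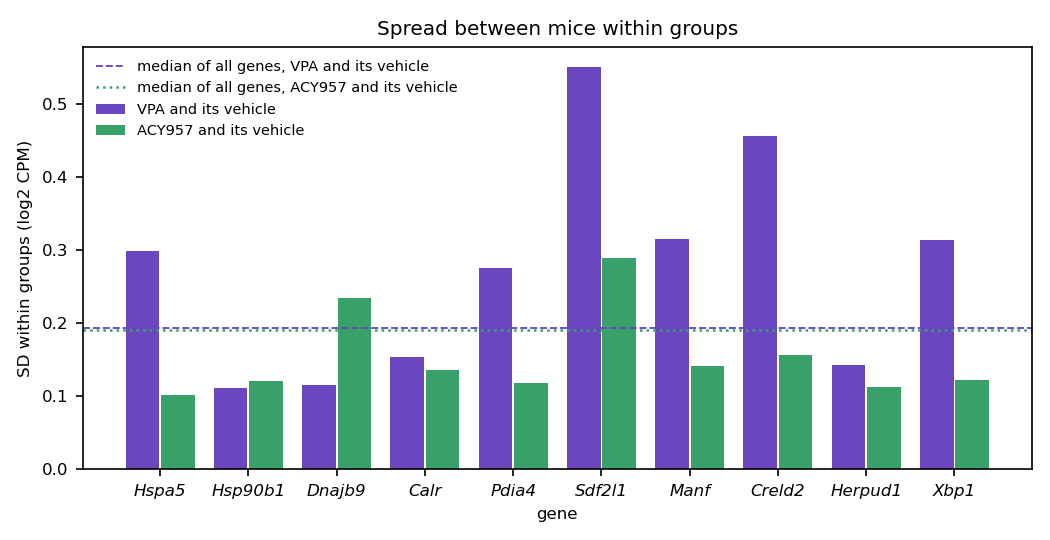
SD of log2 CPM around the group means for each of the 10 genes in the VPA arm and in the ACY957 arm (32 libraries each), with the medians of all genes tested as lines at 0.19 for both arms. Hspa5, Pdia4, Manf, Creld2 and Xbp1 lie below the line in the ACY957 arm and above it in the VPA arm, and Sdf2l1 lies above it in both.

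Most of the 10 genes varied together between mice. With group means removed, Hspa5 correlated over the 64 libraries with Manf (r = 0.89), Sdf2l1 (0.87), Xbp1 (0.86), Pdia4 (0.86) and Creld2 (0.85). Each of these 5 had a permutation p of 1e-05, the smallest that 100000 permutations can give, an adjusted p of 1.5e-05 over 9 relations, and Spearman's rho from 0.82 to 0.85. Without the 2 libraries farthest from the median of Hspa5, their r lay between 0.83 and 0.87. Calr followed (r = 0.65, rho = 0.67), then Herpud1 (r = 0.52, rho = 0.44) and Hsp90b1 (r = 0.39, rho = 0.42), with permutation p of 0.0014 or less for r. Dnajb9, whose product acts on Hspa5, did not pass (r = 0.14, rho = 0.22, permutation p = 0.136 for r).

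Within the arms the picture differed in strength. Over the 32 VPA-arm libraries the r of Hspa5 was 0.94 with Manf, 0.93 with Xbp1, 0.92 with Sdf2l1, 0.90 with Pdia4 and with Creld2 and 0.78 with Herpud1. Over the 32 ACY957-arm libraries it was 0.59 with Manf, 0.37 with Xbp1 (adjusted permutation p = 0.0715), 0.66 with Sdf2l1, 0.64 with Pdia4 and 0.47 with Creld2. Herpud1, the degradation factor, stood at -0.29 there (adjusted permutation p = 0.161). Hsp90b1 went the other way, with an r of 0.35 in the VPA arm (adjusted permutation p = 0.0631) and 0.68 in the ACY957 arm. The difference between the arms was not tested. Over all 45 pairs of the 10 genes the median r was 0.68 in the VPA arm and 0.37 in the ACY957 arm, and r was above 0.8 in 16 pairs and 0 pairs.

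**Figure D4:**
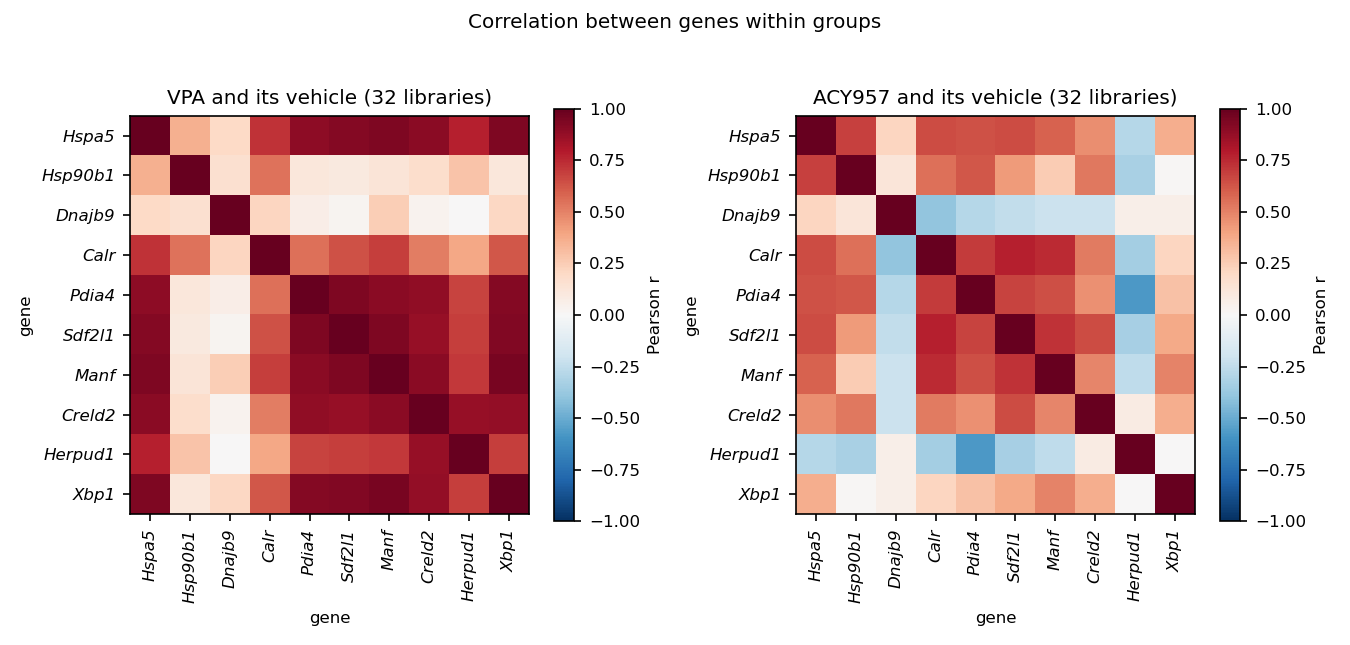
Pearson r between each pair of the 10 genes, from log2 CPM with group means removed, in the 32 VPA-arm libraries (left) and the 32 ACY957-arm libraries (right), on a colour scale from -1 to 1. A block of high r among Hspa5, Pdia4, Sdf2l1, Manf, Creld2, Xbp1 and Herpud1 fills the VPA arm, while in the ACY957 arm r is lower and Herpud1 is negative with Hspa5 (-0.29).

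Other genes of the ER folding machinery moved in part with the 10. Of 18 further ER chaperones and foldases, 7 rose between the drugs and 5 between the vehicles, and 0 fell in either. Of all genes, 6.26% were higher between the drugs and 2.87% between the vehicles. The median log2 differences of the 18 were 0.09 and 0.05. Pdia3, a disulfide isomerase that works with calreticulin, rose by 0.19 and 0.22. Dnajb11, another co-chaperone of Hspa5, rose by 0.21 and 0.17. P4hb, the founding disulfide isomerase, rose by 0.11 and 0.10. Canx, Pdia6, Ppib and Txndc5 passed between the drugs and Dnajc3 and Fkbp2 between the vehicles.

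The degradation machinery, the translocon and the sensors gave these values, beside 12.6% of all genes that passed between the drugs and 5.55% between the vehicles. With lists this short, a count of 0 or 1 is near those shares. Among genes of ER-associated degradation, Edem2 (0.16) and Herpud2 (0.11) rose between the drugs, and neither passed between the vehicles. Of 12 genes of the translocon and signal peptidase, which bring proteins into the ER, 4 rose between the drugs, Sec61b, Spcs1, Spcs2 and Ssr2, by 0.15 or 0.16 each, and 0 passed between the vehicles. Of 9 sensors and their partners, 1 fell between the drugs, Creb3l1 (-0.29), and 0 passed between the vehicles. The third branch of the response runs through the kinase PERK to the transcription factors ATF4 and CHOP. Of 13 genes of that branch, Ddit4 (0.42) and Psat1 (0.20) rose between the drugs and Atf4 fell (-0.32), while 0 passed between the vehicles. Atf4 was also the 1 gene of this list that rose under ACY957 against its vehicle (0.29, adjusted p = 0.0474). The ER chaperones that passed all rose, while the PERK list held changes of both signs.

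Genes of the heat shock response, which serves protein folding in the cytosol and mitochondria, moved with the 10 in the vehicle comparison. Of 13 such genes, 7 rose between the vehicles, with a median log2 difference of 0.16, beside 2.87% of all genes that were higher. Between the drugs 0 passed, beside 12.6% of all genes, with a median of 0.04 and 12 of the 13 above 0. Between the arms 7 of the 13 were higher, beside 11.9% of all genes. Hspa1b, an inducible Hsp70, ranged from 0.821 to 24.0 CPM under the VPA vehicle (median 1.71) and from 0.821 to 3.21 CPM under the ACY957 vehicle (median 1.67). Under VPA it ranged from 0.900 to 6.28 CPM (median 1.73), and under ACY957 from 0.775 to 2.68 CPM (median 1.58). Its medians were alike, and single mice on VPA or, further, on the VPA vehicle reached above the ACY957 arm. Its log2 difference was 1.86 ± 0.39 between the vehicles (adjusted p = 0.0046) and 0.88 ± 0.39 between the drugs (adjusted p = 0.125). Hspb1 (0.76), Hspa1a (0.69), Dnajb1 (0.30), Hspa8 (0.24), Hsp90aa1 (0.16) and Hspd1 (0.15) were the other 6 that rose between the vehicles.

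**Figure D5:**
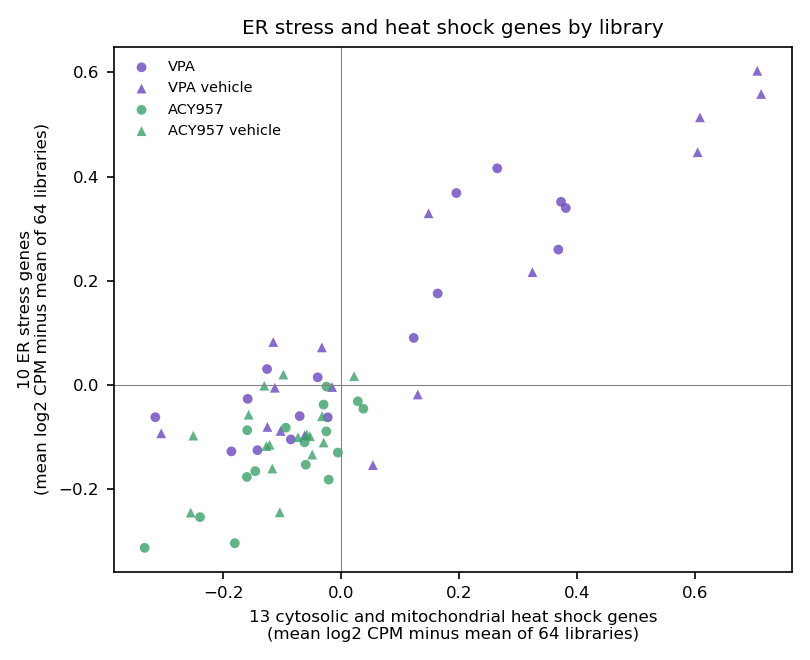
Mean of the 10 ER stress genes (vertical axis) against the mean of 13 heat shock genes (horizontal axis) in each of the 64 libraries, both as mean log2 CPM minus the mean over all libraries. ACY957-arm libraries lie at or below 0.02 on the vertical axis, and VPA-arm libraries reach 0.60 on it and 0.71 on the horizontal axis.

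The genes outside the 10 that followed their mean most closely between mice, with group means removed, were P4ha1 (r = 0.92 over 64 libraries), Tra2a, Hnrnpm and Pdia6 (0.85 each), Ahsa2 (0.84), Ddx17, Hspa1b and Ncoa5 (0.83 each), and Uhrf2 and Hspb1 (0.82 each). P4ha1 is a collagen prolyl hydroxylase of the ER, Pdia6 a disulfide isomerase, and Hspa1b and Hspb1 heat shock proteins. Tra2a, Hnrnpm and Ddx17 bind RNA. The median r over the other 15624 genes was -0.01. Within the arms (VPA arm, then ACY957 arm), r was 0.95 and 0.79 for P4ha1, 0.90 and 0.30 for Hspa1b and 0.89 and 0.31 for Hspb1. For the rest of these genes it ran from 0.87 to 0.91 in the VPA arm and from 0.49 to 0.73 in the ACY957 arm. The difference in r between the arms was not tested. P4ha1 also differed between the arms, with log2 differences of 0.33 between the drugs (adjusted p = 0.0316) and 0.42 between the vehicles (adjusted p = 0.0154), and its highest ACY957-arm value was 55 CPM against 101 CPM in the VPA arm. Hnrnpm, Ddx17 and Ncoa5 did not pass between the drugs or between the vehicles.

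Markers of cell types gave these values beside the arm difference, where 23.3% of all genes passed and 11.9% were higher. Of 8 dopamine neuron markers, 0 passed between the arms, all 8 had log2 differences below 0 (median -0.25), and their summed level ran from 281 to 12299 CPM in the VPA arm and from 2545 to 9283 in the ACY957 arm. Among oligodendrocyte markers, Cldn11 and Mog were higher in the VPA arm. Of 6 tested hypothalamic neuropeptides, Hcrt, Pmch and Tac2 were higher. The summed levels of this list were 8.60 to 607 and 7.33 to 87.4 CPM, with like medians of 11.2 and 11.1 CPM. Of the other markers, S100b of 7 for astrocytes, P2ry12 and Tmem119 of 7 for microglia and Ly6c1 and Slco1a4 of 6 for endothelium were higher, Slc4a5 of 7 for choroid plexus and Syt1 of 6 for neurons were lower, and 0 of 5 for ependyma passed. No list had a marker at 0 in every library. Between mice, Th had an r of -0.14 with the mean of the 10 genes over the 64 libraries. Other markers had r from -0.43 to 0.17 for oligodendrocytes, -0.32 to 0.02 for microglia and -0.12 to 0.51 for astrocytes. Within the arms these could differ: Mag had -0.67 in the VPA arm and 0.47 in the ACY957 arm. The 8 genes driven by the clock had r from -0.62 to -0.06 over the 64 libraries. What links these genes to the 10 was not tested. With Th as a covariate 9 of the 10 still passed between the arms, all but Hsp90b1 (0.06, adjusted p = 0.0989). The part of the other cell types in the arm difference was not tested, and in bulk tissue a change in the number of cells and a change in RNA per cell cannot be told apart.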

How the data were processed

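Each library is the VTA of 1 mouse. The authors deposited whole-number read counts per gene, not normalized. Per the series' design text, reads of 75 bases from a stranded poly(A) kit were aligned to mm10 with TopHat2 (2.0.9) and counted with HTseq (0.6.1), while the submitters' processing notes name HISAT2 and Trimmomatic, so the aligner is uncertain. All 64 columns were matched to samples by mouse number, and 0 columns had no sample.

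Counts were fitted with edgeR 4.0.16 (TMM scaling, filterByExpr, quasi-likelihood test), all 64 libraries together, with the 8 groups as terms within labels and treatment plus genotype label as terms over both labels. P-values were adjusted over all 15634 genes with a threshold of 0.05. Log2 CPM used a prior count of 1, and 95% intervals used the fitted SE. Tests and intervals used 1 estimate of spread per gene for both arms, and do not allow for a spread that differs between the arms. Hspa5 was correlated with the other 9 genes by permutation within groups. DESeq2 1.42.0, limma 3.58.1 voom, sva 3.50.0 and other alternatives were tried. The model was also run on simulated data that gave each gene the same dispersion in all libraries. That simulation does not cover a spread that differs between the arms. The members and gene lists were chosen with earlier results of these data known. Named genes were the 10 members, list genes that passed, and the 10 genes most correlated with the members' mean, predicted genes skipped. Some genes of the lists are not reported here. The p-values set each difference against the spread between mice, and do not account for any difference in how the arms were handled. The 20136693 to 37475292 counts per library limit precision less than that spread.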

Additional observations from a re-analysis of the deposited data

Results flagged for a closer look

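Within the groups of 4 to 10 mice, 50 sets of values of the 10 genes were searched for a library far from its group, measured by its gap to the nearest other library over the range of the group, and 4 were found. Chance gives about 1 in 20. Calr stood at 681.561 CPM in the wildtype-labelled VPA replicate 3, with the next highest at 551.639. This library was also high for 8 of the 10 genes. In the wildtype-labelled ACY957 replicate 6, Calr was lowest at 395.631 CPM, with the next at 496.984, and Herpud1 was highest at 125.868 CPM, with the next at 105.441. Pdia4 was lowest in the wildtype-labelled ACY957 vehicle replicate 5, at 45.3677 CPM with the next at 50.6035.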

How the results depend on the processing

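No paired analysis was possible because each mouse carries its own number and replicate numbers were given in accession order. The runs tried 12 other settings and left out each of the 64 libraries in turn. Of the 28 log2 fold changes of single genes that passed, 0 of 1792 values without 1 library and 0 of 280 values under other settings changed sign, and 67 and 29 of them no longer passed. The count of 10 between the arms moved only with Th as a covariate, to 9. Leaving out 1 library, the count of genes that passed ranged from 4 to 7 between the drugs and from 4 to 9 between the vehicles over both labels, from 0 to 4 and from 1 to 4 in mutant-labelled mice, and from 0 to 1 between the drugs in wildtype-labelled mice, where the 1 came without the mutant-labelled ACY957 vehicle replicate 11. Without the 4 libraries low in Th the count was 4 between the drugs over both labels and 4 between the vehicles in mutant-labelled mice. Without the 13 libraries that go against their labels, chosen after seeing the data, these were 4 and 5, and the count between the drugs in mutant-labelled mice was 1. With Th as a covariate it was 1 there too, and 3 between the vehicles in mutant-labelled mice. Without the 16 vehicle libraries from mouse 48 on, it was 4 between the vehicles over both labels, 0 in mutant-labelled mice and 1 between the drugs in wildtype-labelled mice. DESeq2 gave 3 and surrogate variables 0 between the vehicles in mutant-labelled mice. Against both vehicles pooled, 2 of the 10 passed for ACY957 over both labels (Calr and Manf, both lower), beside 416 of all 15634 genes. The r of Hspa5 was 0.297 with Dnajb9 with no group means removed (adjusted permutation p = 0.025), 0.354 with Hsp90b1 in the VPA arm (0.0631), and 0.367 with Xbp1 (0.0715) and -0.286 with Herpud1 (0.161) in the ACY957 arm. The cause of these changes was not tested. Over all genes, ACY957 against its vehicle gave 10 calls, 32 by DESeq2 and 3 by limma voom, VPA against its vehicle in mutant-labelled mice 9, 28 and 0, VPA against ACY957 in wildtype-labelled mice 150, 309 and 191, and the labels within VPA 157, 262 and 127. Depth was not limiting, but 3 wildtype-labelled mice on the VPA vehicle leave wide errors.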

Other observations

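Cirbp, Rbm3 and Fos, 3 genes chosen after their values were seen, varied with the mean of the 10 genes between mice, with group means removed. Cirbp and Rbm3 encode RNA-binding proteins that are induced by cold. Cirbp had an r of -0.69 over 64 libraries, -0.71 in the VPA arm and -0.64 in the ACY957 arm. Rbm3 had an r of -0.42, with -0.41 and -0.66 in the arms. Both were thus lower in the mice in which the chaperones were higher, in both arms. Neither passed between the arms. The log2 difference was -0.10 for Cirbp (edgeR adjusted p = 0.369) and 0.07 for Rbm3 (edgeR adjusted p = 0.67). Fos, an immediate early gene of neuronal activity, had an r of 0.80 in the VPA arm and -0.30 in the ACY957 arm. These values come from the same libraries as the 10 genes, so they share depth and tissue, and what moves them together was not tested.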
